A study of Mus musculus with 2 samples.

Results

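Phf11 and Schlafen (Slfn) genes form tandem families in the mouse genome, and 10 of them were taken from the array table by symbol: Phf11a, Phf11b, Phf11c, Phf11d, Slfn1, Slfn2, Slfn3, Slfn5, Slfn8 and Slfn9. They were selected on their families and on the measured difference between the arrays, which was known when they were chosen, so the values below describe these genes and are not a test of them. A gene was measured by a probe set (a group of array probes summarised to 1 value) annotated with its symbol and no other. Of the 10 genes, 9 had such a probe set, 1 each, out of 22180 genes measured in all. Slfn9 was covered only by a probe set shared with Slfn8.

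The study used 2 Affymetrix whole-transcript arrays with RNA of spleen cells from Fx-/- mice. Fx (now Gfus) encodes an enzyme of the route from mannose to GDP-fucose, and without it fucosylated glycans need fucose from outside. Both groups carried this genotype, and they differed in treatment: mice of the on-fucose array were fucose-treated, and those of the off-fucose array had no fucose treatment. The labels call the cells cDC1, the type 1 conventional dendritic cells, after magnetic depletion of B220 and CD11b cells and positive selection for CD11c. The labels used here give neither the number, age and sex of the mice nor the time off fucose, and no array of wild-type mice was used here.

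Each treatment had 1 array, so nothing here has a replicate check and nothing could be tested. Differences are in log2 units, with the on-fucose value subtracted from the off-fucose value. As a yardstick it is set against the robust SD of the differences of all genes with similar mean intensity, which ran from 0.16 to 0.36 over 20 intensity bins and mixes technical with biological differences. The expression filter kept the 11090 genes whose mean log2 intensity reached the median gene's 2.88. Of the 9 measured members, 7 passed, and Phf11d and Slfn3 lay below.

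The arrays stood apart in more than fucose. Xist, the RNA of the inactive X chromosome, went from 8.26 on fucose to 2.82 off fucose, while the Y-linked gene Uty went from 2.14 to 5.26, so sex and treatment cannot be told apart here. The 9 measured T cell markers ran from 7.17 to 11.2 on fucose and from 6.85 to 11.0 off fucose. The 13 measured cDC1 markers had a median of 3.83 on fucose and 4.96 off fucose. Among them Xcr1 (2.90 and 3.43), Zbtb46 (2.84 and 2.98) and Itgax (3.83 and 3.86) differed by less than 2-fold. On fucose Xcr1 and Zbtb46 lay near the median of all probe sets (2.81), so those values are dim and do not show steady expression. Batf3 (4.58 and 5.49), Cadm1 (3.04 and 3.65) and Flt3 (3.19 and 4.13) differed by less than 2-fold too. Itgae (6.02 and 5.64) and Cd8a (8.37 and 8.22) were lower off fucose, also within 2-fold. Irf8 (4.18 and 6.68), Naaa (5.97 and 8.36), Tlr3 (2.95 and 4.96), Wdfy4 (4.28 and 5.84) and Septin3 (2.97 and 4.65) were over 2-fold higher off fucose. Probe sets differ in response, so levels of different genes are not ranked. All 10 granulocyte precursor markers and all 8 erythroid markers past the filter were higher off fucose, with median differences of 4.30 and 2.51. The filter uses the mean of both arrays, so a gene can pass through its off-fucose value alone. Over all 11 measured granulocyte precursor markers the median was 3.54. In such bulk RNA, fewer cells of a type and less RNA per cell cannot be told apart.

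Phf11 proteins carry a PHD zinc finger, a fold that in many nuclear proteins reads histone tails. Human PHF11 has been studied as a regulator of T helper type 1 cytokine genes and as a candidate gene in allergy, and the mouse holds several copies side by side. Schlafen proteins take their name from the German word for sleeping, after the arrest of growth that the first of them caused in T cells. Short forms (Slfn1, Slfn2), intermediate forms (Slfn3, Slfn4) and long forms with a helicase-like part (Slfn5, Slfn8, Slfn9, Slfn14) are distinguished. Many respond to interferon, and several act on transfer or ribosomal RNA.

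The promoters show what part of the members share a letter pattern of interferon-response elements. RefSeq windows of 300 bases around a start site (250 before and 50 after, GRCm38.p6) were at hand for all 10 members and were searched on both strands for GAAA, any 2 bases and GAAA again, the core of the interferon-stimulated response element (ISRE). It was found in 5 members (Phf11a, Phf11b, Slfn5, Slfn8 and Slfn9) and in 3.44% of all 32851 windows. The stretch around each match is printed 5′ to 3′ on the gene's strand, with the match in capitals, because it separates members of the same family.
Phf11a, chr14:59297523-59297576, minus strand: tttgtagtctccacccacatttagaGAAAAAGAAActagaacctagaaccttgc
Phf11b, chr14:59341346-59341405, minus strand: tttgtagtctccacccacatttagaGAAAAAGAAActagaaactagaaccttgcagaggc
Slfn5, chr11:82951922-82951981, plus strand: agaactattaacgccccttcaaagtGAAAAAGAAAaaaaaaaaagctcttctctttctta
Slfn8, chr11:83020824-83020883, minus strand: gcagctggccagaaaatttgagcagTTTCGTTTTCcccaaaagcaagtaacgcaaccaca
Slfn9, chr11:82991841-82991900, minus strand: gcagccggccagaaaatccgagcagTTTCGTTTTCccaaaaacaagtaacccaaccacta

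Phf11a and Phf11b share 53 of the 54 bases set against each other, with C42A (Phf11a base first, counted from 1 at the 5′ end of the stretch) as the only difference. Over the 250 bases before the start their promoters were 83.8% identical in a global alignment, whereas the other pairs of Phf11 members came to between 48.7% (Phf11c and Phf11d) and 56.4% (Phf11a and Phf11d). Slfn8 and Slfn9 share 44 of the 60 bases of the printed stretch set against each other without gaps, 32 of them among the 35 up to the end of the match, which both carry on the opposite strand from the other matches. Over the 250 bases before the start, 141 bases were identical in an alignment 345 columns long, which is 40.9% with gap columns counted. The alignment used 1 of the 2 Slfn8 windows. In it the match ends 126 bases before the start, against 35 in Slfn9, so the windows are offset and gaps lower the percentage. The other Slfn8 window also holds the match, nearer to its start, and was not aligned. The 40.9% therefore depends on the window taken and is no measure of how alike the 2 promoters are. Phf11c, Phf11d, Slfn1, Slfn2 and Slfn3 did not hold these letters in their windows. TTCNNNGAA, the pattern of a gamma-activated site that binds STAT dimers, was found in no window of a member and in 8.3% of all windows. A match is a description of letters and not a site of binding.

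The Phf11 members differed from one another more than the Schlafen members did. Their differences ran from -1.74 in Phf11c to 1.26 in Phf11a, with a median of 0.40 over the 4 genes. That median counts Phf11d, which lay below the filter. The 3 Phf11 members past the filter had 1.26, -0.02 and -1.74, with Phf11b in the middle. The differences of the 5 measured Schlafen members ran from -0.48 to 0.11, with a median of -0.29. The median of all genes was -0.0008, and of genes past the filter -0.05. Among the 9 members, Phf11a was over 2-fold higher and Phf11c over 2-fold lower off fucose. Of genes past the filter, 2.37% were higher by 2-fold or more and 0.514% lower by as much, and the choice of members used this contrast, so nothing is read from the count.

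**Figure D1:**
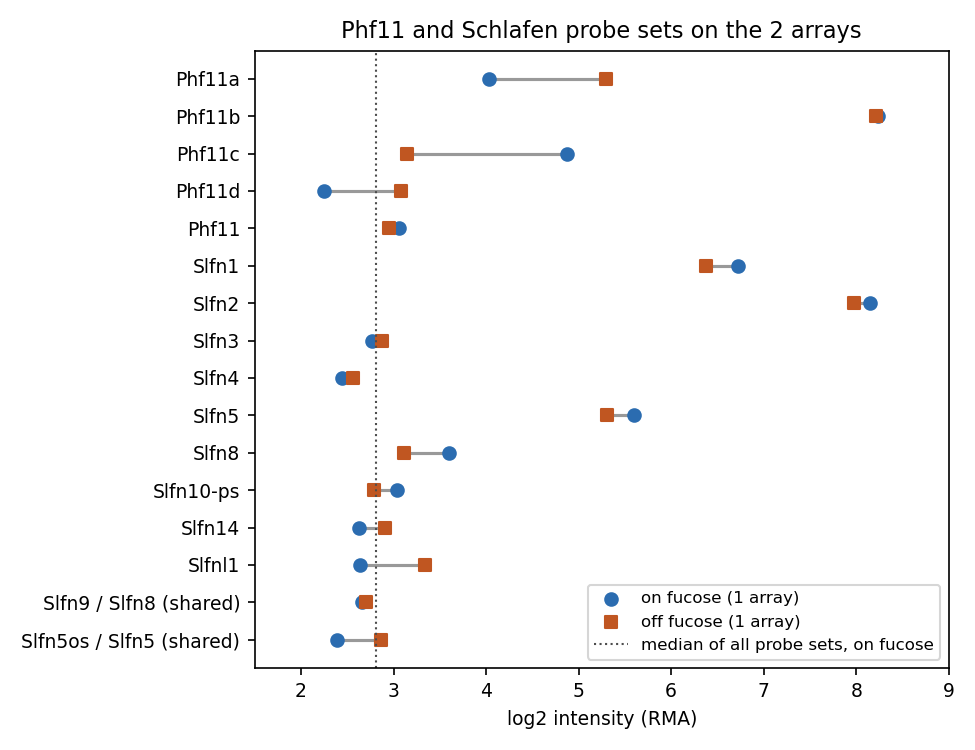
Log2 RMA intensity (horizontal axis) of each Phf11 and Schlafen probe set on the on-fucose array (circles) and the off-fucose array (squares), 1 array each, with lines joining the 2 values and a dotted line at the on-fucose median of all probe sets (2.81). Phf11a and Phf11c lie on opposite sides of their on-fucose values, Phf11b, Slfn1, Slfn2 and Slfn5 hold values above 5 on both arrays, and the shared probe sets lie below 3.

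Phf11c, a PHD finger copy next to the histone methyltransferase gene Setdb2, had the lowest difference of the family. Its intensity was 29.4 on fucose and 8.83 off fucose, which are log2 values of 4.88 and 3.14. On the off-fucose array 62.3% of all probe sets lay below its value, and on the on-fucose array 80.0%. The difference of -1.74 is 3.33-fold lower and 4.85 times the yardstick SD of 0.36. It ranked at position 6 from the lowest among the 11090 genes past the filter. The off-fucose value is dim, which may understate the fold. The members were chosen with this contrast known, which may overstate it. With 16 added to the intensities the difference was -0.87.

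Phf11a had the opposite direction. Its intensity was 16.3 on fucose and 39.2 off fucose (log2 4.03 and 5.29), a difference of 1.26, which is 2.40-fold higher and 3.72 times its yardstick SD of 0.34. It ranked at position 195 from the highest, so many more genes exceeded it than lay beyond Phf11c in the other direction.

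Phf11b, the copy whose promoter is most like that of Phf11a, had near-equal values. Its intensity was 302.4 on fucose and 297.7 off fucose (log2 8.24 and 8.22). The difference of -0.02 is far smaller than its yardstick SD of 0.20. Phf11d, which lay below the filter, went from 4.76 to 8.43 (log2 2.25 and 3.08), a difference of 0.82, or 1.77-fold higher. Only 4.15% of probe sets lay below its on-fucose value and 60.6% below its off-fucose value, so both values are among the dim ones. Without the filter, 3.21% of all genes measured were higher by 1.5-fold or more. The probe set named Phf11, which RefSeq lists as a pseudogene of the cluster, had 3.06 and 2.95.

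Most markers of cDC1, and those of monocytes and macrophages, were higher on the same array as Phf11a and Phf11d. That direction is not particular to them. The granulocyte precursor, erythroid and cell cycle markers were higher there too, with larger medians past the filter (4.30, 2.51 and 2.09). Of the cDC1 markers, 11 of 13 were higher off fucose, with a median difference of 0.92. The log2 intensities of the 13 ran from 2.84 to 8.37 on fucose and from 2.98 to 8.36 off fucose. On fucose the upper end was Cd8a (8.37), followed by Itgae (6.02) and Naaa (5.97), and Cd8a and Itgae were lower off fucose. All 5 monocyte and macrophage markers past the filter were higher, with a median difference of 1.55, and over all 8 measured the median was 0.94. Adgre1, Cd14 and Fcgr1 lay below the filter. The part of cDC1, of monocytes and macrophages, of the precursor cells and of the T cells in the Phf11 values was not tested.

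The short Schlafen forms had lower values off fucose within 1.5-fold. Slfn2, whose loss makes T cells and monocytes leave quiescence, had intensities of 284.6 on fucose and 251.0 off fucose (log2 8.15 and 7.97). Its difference of -0.18 is smaller than the yardstick SD of 0.20. Slfn1, the form first tied to growth arrest of thymocytes, had 105.5 and 83.2 (log2 6.72 and 6.38), and its difference of -0.34 is 1.29 times its yardstick SD. The direction of Slfn2 flips to 0.15 when differences are centred on the T cell markers, and Slfn1 then stands at -0.01.

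Of the intermediate forms, Slfn3 had 6.79 on fucose and 7.34 off fucose (log2 2.76 and 2.88), near the array medians on both. Slfn4, a gene of macrophages and other myeloid cells and no member of the 10, had 2.44 and 2.57.

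Among the long forms, Slfn5, an interferon-inducible nuclear protein, had intensities of 48.3 on fucose and 39.5 off fucose (log2 5.60 and 5.30), a difference of -0.29 that is 0.96 times its yardstick SD. Slfn8 had 12.1 and 8.65 (log2 3.59 and 3.11). Its difference of -0.48 was the lowest of the Schlafen members and 1.43 times its yardstick SD. With centring on the T cell markers Slfn5 turned to 0.04 and Slfn8 came to -0.15.

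Probe sets shared between genes were kept apart. The one that carries both Slfn9 and Slfn8 had 6.31 and 6.51 (log2 2.66 and 2.70), a difference of 0.04, against -0.48 on the probe set of Slfn8 alone. The one that carries Slfn5 and its antisense RNA Slfn5os had 5.25 and 7.26 (log2 2.39 and 2.86), a difference of 0.47, against -0.29 on the probe set of Slfn5 alone. Both shared probe sets were dim, and neither can be assigned to 1 gene. The paralogs are alike in sequence, and whether probes of one copy bind RNA of another was not tested.

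The remaining Schlafen genes outside the 10 were dim on both arrays. Slfn14, a ribosome-linked nuclease known from platelets and immature red cells, had 2.62 and 2.91. Slfn10-ps had 3.04 and 2.78, a difference of -0.25, or 0.08 once centred on the T cell markers. Slfnl1, a Schlafen-like gene on another chromosome, had 2.64 and 3.34, a difference of 0.70 and 2.93 times its yardstick SD.

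**Figure D2:**
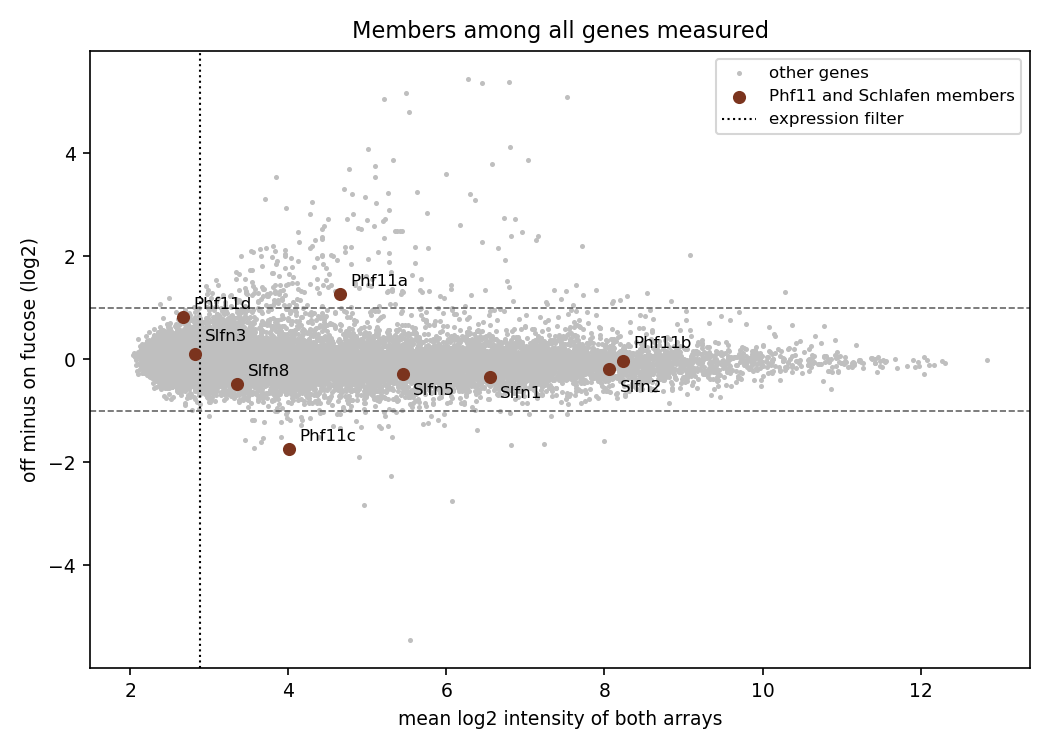
Difference off minus on fucose (log2, vertical axis) against the mean log2 intensity of both arrays (horizontal axis) for all 22180 genes, with the 9 measured members named, dashed lines at 2-fold and a dotted line at the expression filter (2.88). Phf11a and Phf11c lie outside the dashed lines and the other 7 members lie between them.

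The differences of the genes beside each cluster are given as a description of its surroundings. The 5 nearest measured genes on each side were taken, without predicted genes, clones and small RNAs. None of the 10 genes around the Phf11 cluster on chromosome 14 was 2-fold apart, and 9 of them passed the filter. Of all genes past the filter, 2.37% were higher and 0.514% lower by 2-fold or more, so nothing is read from that count. The differences of the 10 ran from -0.65 in Zdhhc20, a palmitoyltransferase gene, to 0.67 in Micu2, a subunit gene of the mitochondrial calcium channel. Setdb2, adjacent to Phf11c, went from 5.17 to 4.61 (-0.56), and Rcbtb1, on the far side of the cluster, from 7.14 to 6.97 (-0.17). Within the cluster the order along the chromosome was Phf11, Phf11a, Phf11b, Phf11d and Phf11c, with differences of -0.11, 1.26, -0.02, 0.82 and -1.74. The signs of Phf11 and Phf11b rest on values within their yardstick SD, and that of Phf11b turned positive under 4 of 6 alternatives. Phf11d and Phf11c, which are adjacent, had opposite signs under all 6, some of which cannot change a sign.

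None of the 10 genes around the Schlafen cluster on chromosome 11 was 1.5-fold apart, and only 5 of the 10 passed the filter. Of all genes past the filter, 5.77% were higher and 4.27% lower by as much, so nothing is read from that count. The range of these 10 neighbours, from -0.36 in Gas2l2 to 0.39 in Fndc8, overlapped that of the Schlafen members. Fndc8 lay below the filter, with dim values of 2.12 and 2.52. Ap2b1, an adaptor gene of clathrin-coated vesicles, went from 9.09 to 8.91, and Taf15, an RNA-binding protein gene, from 7.12 to 7.32. AI662270, a long noncoding RNA between Slfn3 and Slfn14, went from 8.57 to 9.26, and its difference of 0.69 was the highest of the measured genes inside the cluster. Gm20234, a long noncoding RNA between Slfn2 and Slfn1, went from 5.22 to 4.80 (-0.42). These 2 noncoding RNAs were chosen after their values were seen.

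**Figure D3:**
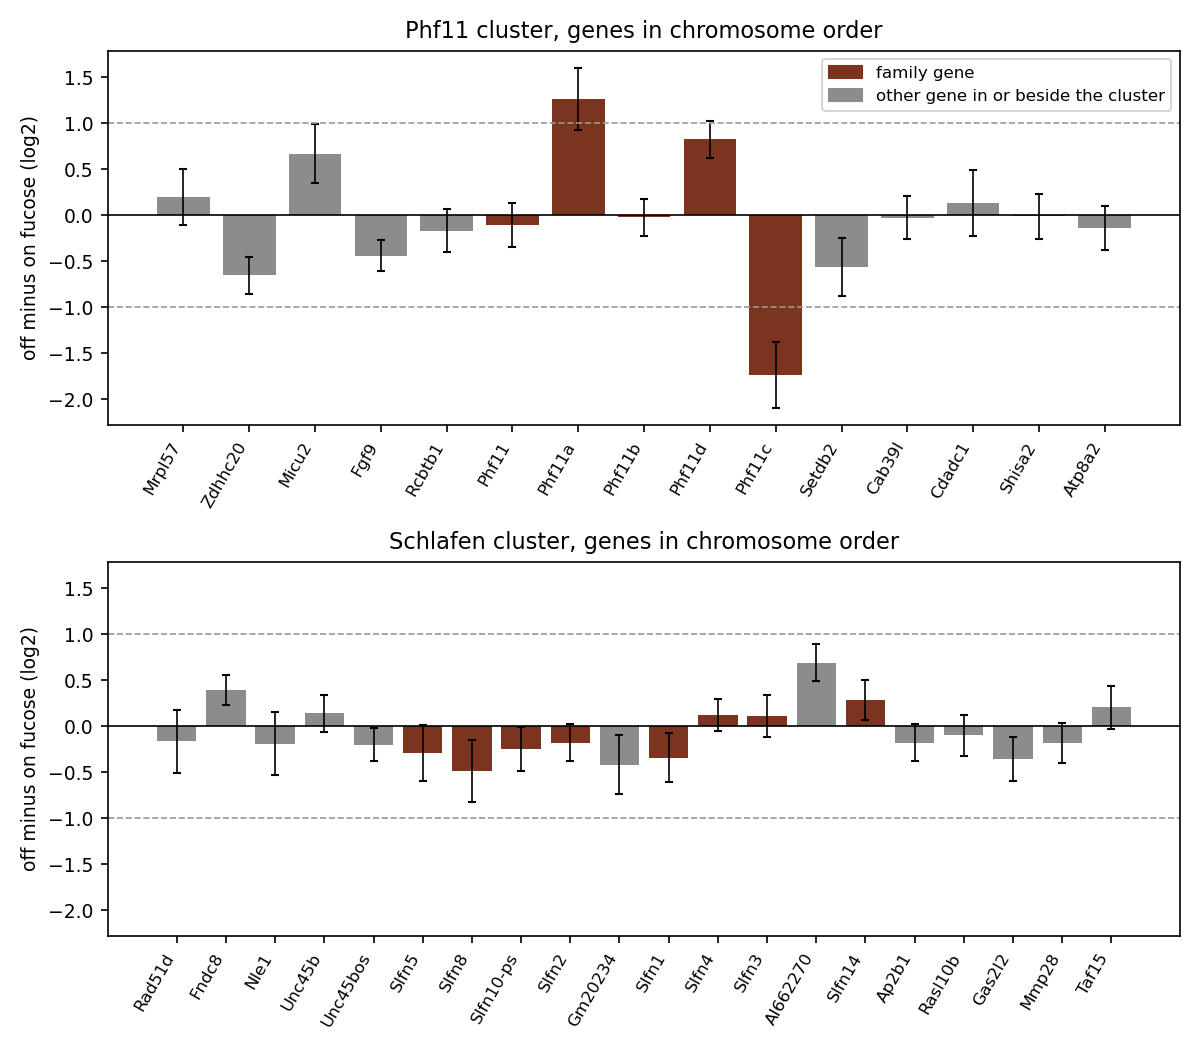
Difference off minus on fucose (log2, vertical axis) of the measured genes in and beside the Phf11 cluster (top) and the Schlafen cluster (bottom), in chromosome order, with family genes in brown, other genes in grey, dashed lines at 2-fold and black bars of 1 yardstick SD, which is no replicate error. Phf11a (1.26) and Phf11c (-1.74) pass 2-fold in opposite directions, and no gene of the lower panel does.

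Members with and without the ISRE letters had differences in both directions. Among the measured members with a match, Phf11a had 1.26, Phf11b -0.02, Slfn5 -0.29 and Slfn8 -0.48. Among those without one, Phf11d had 0.82, Slfn3 0.11, Slfn2 -0.18, Slfn1 -0.34 and Phf11c -1.74. The ranges of the sets overlapped.

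The interferon genes to which both families are linked had mostly lower values off fucose, each within 2-fold. Of 37 type I interferon-stimulated genes listed, 31 passed the filter, and 24 of them were lower and 7 higher, with a median of -0.38. Over all 35 measured the median was -0.27. At least 1.5-fold lower were 6, beside 4.27% of all genes past the filter, and none was 1.5-fold higher, beside 5.77%. Rtp4, a receptor chaperone gene, had -0.75, the RNA sensor gene Ddx58 -0.73, Ifit1bl1 -0.71 and the oligoadenylate synthetase gene Oas3 -0.70. Of 13 measured interferon receptor and signalling genes, 11 were lower, with a median of -0.23, among them the transcription factor genes Stat2 (-0.74), Irf9 (-0.56) and Irf2 (-0.56), while the interferon-gamma receptor gene Ifngr1 had 0.50. With centring on the T cell markers the median of the first list past the filter was -0.05 with 15 genes higher, and that of the second turned to 0.10.

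Slfn2 is known for keeping lymphocytes quiescent, and the other quiescence genes had mostly small differences. Of 18 that passed the filter, 15 were lower and 3 higher, with a median of -0.20, or 0.13 once centred on the T cell markers. By 1.5-fold or more 0 were lower, beside 4.27% of all genes past the filter, and 2 higher, beside 5.77%. The transcription factor gene Foxo1 had -0.41 and the antiproliferative gene Btg1 -0.41. Klf4, which myeloid cells also use, went from 2.81 to 4.79 (1.98), and Klf6 had 0.70. The 9 measured cell cycle markers were all higher off fucose, 8 of them by 2-fold or more, beside 2.37% of all genes past the filter. Their median was 2.09, and among them were the proliferation marker gene Mki67 (2.17) and the cyclin gene Ccna2 (2.18). The T cell markers, all 9 of which were lower, had a median of -0.33, within the range of the Schlafen members. The part that a change in T cell RNA or in dividing cells has in the Schlafen values was not tested.

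The T helper type 1 genes, to which human PHF11 has been linked, went both ways. Of 9 past the filter, 5 were lower and 4 higher, with a median of -0.28, or 0.05 once centred on the T cell markers. With Il2, which lay below the filter at 2.69 and 2.80, the median over all 10 measured was -0.13. Tbx21, the lineage factor gene, had -0.66, the interleukin-18 receptor gene Il18rap -0.59, Il12rb2 -0.29 and the interferon-gamma gene Ifng 0.74.

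**Figure D4:**
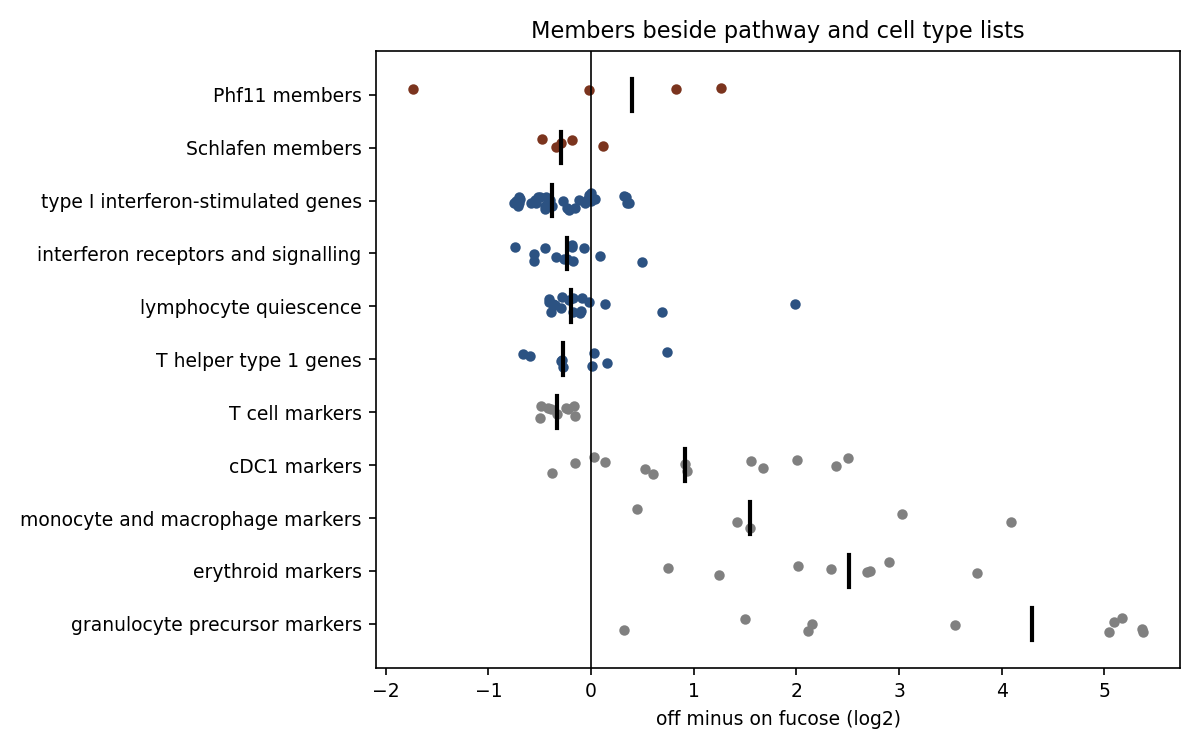
Difference off minus on fucose (log2, horizontal axis) of each measured Phf11 and Schlafen member (brown), of pathway genes past the filter (blue) and of cell type markers past the filter (grey), 1 point per gene, with a black bar at each median. The Phf11 members spread from -1.74 to 1.26, the Schlafen members lie between -0.48 and 0.11, and the medians of the erythroid and granulocyte precursor markers are 2.51 and 4.30.

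Centring on the T cell markers took the overall median past the filter from -0.05 to 0.28, which sets the shifts given above. With it, 521 genes were higher and 19 lower by 2-fold or more (96.5% of them higher), in place of 263 and 57 (82.2% higher). Phf11c was then at -1.41 and Phf11a at 1.59, so both kept their directions, and Phf11d, at 1.15, passed 2-fold. Phf11b turned to positive values under that centring (0.31), under loess (0.05), under median centring (0.02) and under quantile normalisation (0.0042).

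**Figure D5:**
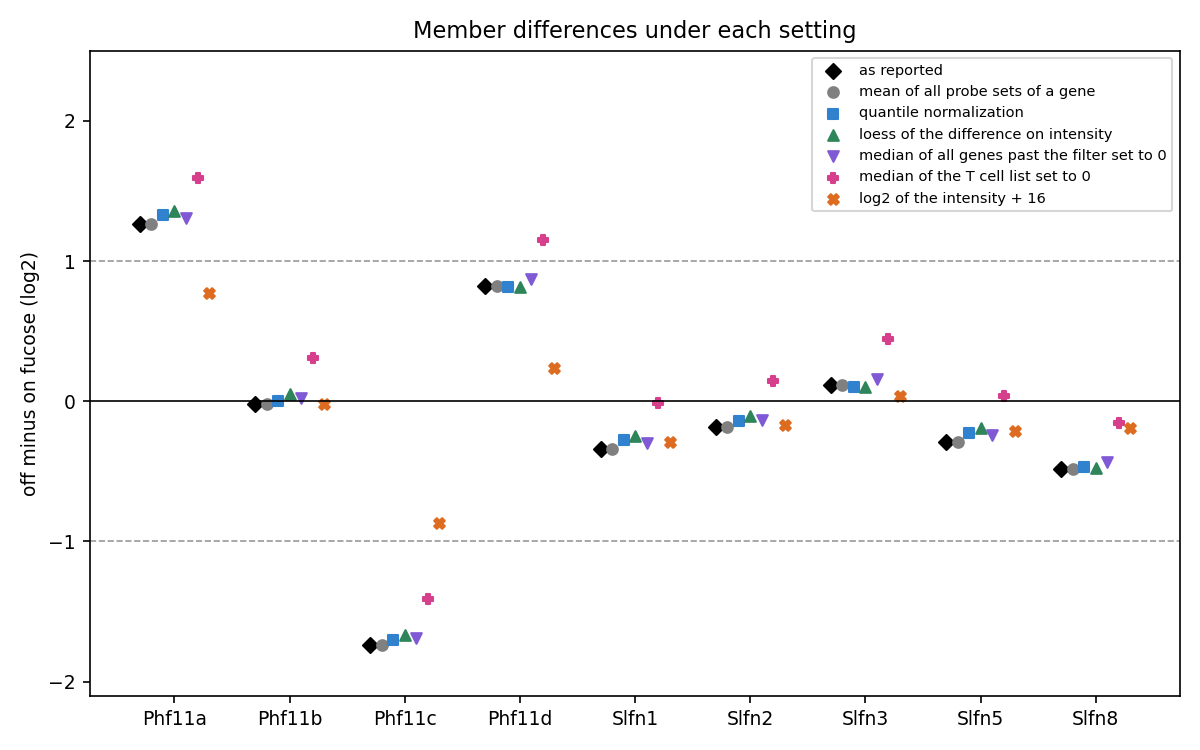
Difference off minus on fucose (log2, vertical axis) of each measured member (horizontal axis) as reported (black diamonds) and under 6 other settings, named in the legend, with dashed lines at 2-fold. Phf11a stays above 0 and Phf11c below 0 under all 6, some of which cannot change a sign. Both fall within 2-fold when 16 is added to the intensities (0.77 and -0.87).

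The genes closest to Phf11c and Slfn8, the member of each family with the largest difference in size, were found by the Euclidean distance of the log2 values on the 2 arrays. For Phf11c they were the MHC class Ib gene H2-M2 (4.88 and 3.15; distance 0.0097), the actin-bundling fascin gene Fscn1 (4.66 and 3.15; 0.22) and AW011738 (4.80 and 3.53; 0.39). For Slfn8 they were Mmaa (distance 0.013), Eogt (0.017) and Gnai1 (0.026). Likeness over 2 arrays rests on 2 values per gene, probe sets differ in response, and a dense field of dim genes lies around Slfn8.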

How the data were processed

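The authors deposited an intensity for each of 41345 probe sets on each array. Per the submitters' processing notes these came from RMA, which normalises arrays and summarises probes. The RMA version and any genome build are not given in the sources used here. Although log2 values are RMA's usual output, the deposited intensities ran from 2.74 to 9512. They were therefore assumed to have been turned back to the linear scale, and log2 was taken. No source used here states this step, and every log2 value and fold rests on it. Of the probe sets, 23521 had 1 symbol in the platform annotation, 1814 had several, and 16010 without an entry there stay unnamed. A gene with several probe sets was read from its brightest one by mean log2 intensity. Gene order came from RefSeq (GRCm38.p6), and 21994 of the genes matched it by Entrez ID. Promoter sequences are RefSeq's. Their windows were read in the gene's orientation, which all 710 pairs of overlapping minus-strand windows bore out. The number of arrays limits the precision.

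The robust SD was 1.4826 times the median absolute deviation. Members, lists and rules were chosen with earlier results of these data known. Named were all members, other Phf11 and Slfn genes, the 5 nearest genes on each side of a cluster, the up to 4 genes of each pathway list that differed most, and the 3 genes closest to a leading member. Cell type markers are named beside them. The marker lists not described elsewhere had median differences of -0.02 (B cell), -0.25 (NK cell) and 0.02 (housekeeping). The alternatives were other ways of combining probe sets, scaling, centring, filtering and setting the fold. A comparison of protein sequences was planned and not made, since protein sequences were not used here. The scripts were tested on simulated data. Python 3.11.15, pandas 2.3.3 and statsmodels 0.14.6 were used.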

Additional observations from a re-analysis of the deposited data

How the results depend on the processing

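No paired analysis was possible because there is a single array on each side. Leaving out an array was impossible too. The yardstick SD stood in for a replicate SD when deciding whether a value moved. Phf11a and Phf11c kept their directions under all 6 alternatives, from 0.77 to 1.59 and from -1.74 to -0.87. That count is no measure of robustness. The mean of probe sets cannot change a member with 1 probe set, and adding 16 to the intensities cannot change a sign. Quantile normalisation, loess and median centring moved no member by its yardstick SD, and the mean of probe sets could move none. With centring on the T cell markers, genes at least 2-fold higher and lower numbered 521 and 19 in place of 263 and 57, and those at least 1.5-fold higher and lower 1779 and 75 in place of 640 and 473. The median of the Phf11 members was then 0.73 and that of the Schlafen members 0.037, since this centring subtracts 1 value from each difference. With 16 added to the intensities, the counts were 116 and 11 at 2-fold and 270 and 124 at 1.5-fold, the Phf11 median was 0.11 and Phf11d came to 0.23, as the constant shrinks differences of dim probe sets. At 3-fold the counts were 118 and 12, and with the filter at the 67th percentile, which keeps 7320 genes, 385 genes were at least 1.5-fold higher. The mean of the Phf11 members was 0.082 in place of the median of 0.40. No probe set is shared between Phf11 members and another gene, so that alternative gave no value for them. Low signal over background limits the values of Phf11d, Slfn3, Slfn8 and the off-fucose value of Phf11c.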
